A study of Mus musculus with 16 samples.

Results

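Untreated colon organoids of 2 genotypes were compared here: 4 arrays of ATF2/7 mutant organoids against 4 arrays of wild-type (WT) organoids, 8 of the 16 arrays in the study, over every gene that was bright enough to test. Organoids are balls of epithelium grown from gut stem cells. The members were taken by their labels, as the samples of each genotype whose titles name no tumour necrosis factor alpha (TNFa). The other 8 arrays, 4 of each genotype, came from organoids given recombinant TNFa at 50 ng/mL for 12 h. All 16 samples shared the same culture medium with EGF, Noggin and R-spondin. The labels of the mutant contradict each other. One names ATF2 as the knocked-out gene and ATF7 as the floxed one, another gives ATF2 fl/fl / ATF7 KO, and the titles read ATF2/7 fl. No label names a Cre or says that a floxed allele was recombined, so loss of both genes is not established. Nor does any label say that numbered samples came from separate animals or cultures, so the p-values below measure only the spread between these samples, which may be technical.

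ATF2 and ATF7 are closely related transcription factors with a basic leucine zipper. They bind DNA as dimers, with each other or with Jun proteins, at the cAMP response element (CRE) and related sites. The stress kinases JNK and p38 phosphorylate both of them and so raise their ability to activate transcription, and the gene Jun is a well-known target of such dimers.

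Of 18850 named genes on the array, 11766 were tested. The deposited signals are on a log2 scale, on which a difference of 1 is a 2-fold change, and array medians lay between 7.02 and 7.11. The 40th percentile of an array lay between 6.40 and 6.56, and where a group averaged below 6.56 its fold change is approximate because so dim a signal is partly background. Over all tested genes, arrays of a group correlated at 0.986 to 0.994 and arrays of different genotype at 0.980 to 0.989 among the 8 untreated arrays. The first principal component of these 8 arrays held 36.7% of the variance and separated the genotypes. All 15 colon epithelium markers on the array (Epcam, Cdh1, Cdh17, Hnf4a and others) were above the 40th percentile on all 8 arrays, and 1 of them, Cdx2, was called. Of the fibroblast and smooth muscle markers 6 of 15 on the array were bright enough to test, of the immune markers 3 of 15, and of the endothelial, glial and neuronal markers 2 of 13, and 0 of these 11 were called. Among the dim markers were Ptprc, Cd3e, Pecam1, Col3a1 and Dcn. The array of WT + TNFa sample 2 differed from the other 3 of its group. It enters the untreated comparison through the shared estimate of the spread, the brightness filter and the choice of probe sets. Its 40th percentile of 6.56 also sets the dim limit, while those of the 8 untreated arrays lay between 6.41 and 6.51. A group averaging between 6.51 and 6.56, such as Ikzf2 in WT, was dim by this limit only.

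Atf2 mRNA was not called as different between the genotypes. Its probe set read 10.23, 10.33, 10.03 and 10.07 log2 in the WT arrays and 10.12, 10.18, 10.13 and 10.15 in the mutant arrays. The groups overlapped, and the mutant lay 0.02 log2 below WT (−0.02, SE 0.06, 95% interval −0.15 to 0.11, adjusted p = 0.942). The exons under this probe set are not stated in any label, and probes that lie outside a deletion still give signal, so the value checks neither version of the genotype. Atf7 was not analysed here. Among the 20 tested genes of the wider ATF and CREB family 0 were called, with differences from −0.15 to 0.09 log2.

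Between the genotypes 292 genes were called at an adjusted p under 0.05 (limma), which is 2.48% of the genes tested. In the mutant 118 were higher (1.00%) and 174 were lower (1.48%). The changes were mostly modest: the median was 0.49 log2 for the higher genes and −0.45 for the lower ones, 164 called genes changed by less than 0.5 log2, and 18 rises (0.153%) and 18 falls (0.153%) were at least 2-fold. Without array WT + TNFa 2 the count of lower genes was 273, and without WT 2 or WT 4 it was 109 or 114. In 280 of the 292 called genes the 4 mutant arrays did not overlap the 4 WT arrays, against 1099 of all tested genes (9.34%). The genes were called from these same arrays, so their larger share follows from that choice and is no separate evidence. Where a call was lost under an alternative processing or without 1 array, the highest adjusted p over 27 alternatives is given below as "up to". These leave out the 2-fold minimum, whose outcome can be read from the size of each change. The gene lists used below were chosen with earlier results of these data known. The share of a list that was called therefore describes the list and is no test of enrichment. The nearest genes inside the threshold were Cd55b (adjusted p = 0.0488) and Gnal (0.0491), and the nearest outside were Pparg and Tvp23b (both 0.0507).

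The largest fall was that of Ctla2a, which encodes a small inhibitor of cysteine proteases. It read 8.64, 8.47, 7.48 and 6.04 log2 in WT and 4.47, 4.39, 3.96 and 4.34 in mutant. The WT arrays were widely spread, with WT 1 and 2 high and WT 4 low, yet every mutant array was lower. The difference was −3.37 log2 (SE 0.40, adjusted p = 0.000106), or 10.3-fold, and approximate since all mutant arrays were dim. Ctla2b, a close copy in the same family, read 7.32, 7.47, 7.50 and 6.44 in WT and 6.36, 6.06, 5.83 and 5.99 in mutant (−1.12 log2, SE 0.20, adjusted p = 0.00333). WT 4 was the lowest WT array for both genes, and probes of such similar genes can share signal.

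Fibronectin, Fn1, a large glycoprotein of the extracellular matrix that integrins bind, showed the same uneven WT level. WT arrays read 9.04, 9.15, 7.94 and 7.11 log2 and mutant arrays 5.57, 5.44, 5.10 and 5.72. WT 1 and 2 were again the highest and WT 4 the lowest, and all mutant arrays were in the dim range. The difference was −2.85 log2 (SE 0.34, adjusted p = 0.000106), or 7.21-fold. Beside it, the mean log2 signal of the 15 fibroblast and smooth muscle markers on the array was 6.12 to 6.19 in WT and 6.07 to 6.28 in mutant. Of these markers 9 were too dim to test and the mean itself is in the dim range, so it cannot show whether such cells differed. Vim, an intermediate filament of mesenchymal cells, was at 7.00 ± 0.14 in WT and 7.17 ± 0.06 in mutant (mean ± SD, n = 4, adjusted p = 0.511). In bulk RNA of this kind, fewer cells of a type and less RNA per cell cannot be told apart.

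Ttc21b, a subunit of the complex that carries cargo back along cilia, was even in WT at 8.72, 8.70, 8.61 and 8.61 log2. In mutant it read 4.99, 5.42, 6.36 and 5.99. All 4 mutant arrays were dim and the difference was −2.97 log2 (SE 0.21, adjusted p = 5.07e-07), or 7.84-fold. Ddah1, an enzyme that degrades methylated arginines that inhibit nitric oxide synthases, read 9.96, 9.93 and 9.78 in WT 2 to 4, slightly more in WT 1, and 7.49, 7.92, 8.26 and 7.14 in mutant. It stayed well above the dim range in the mutant, at −2.21 log2 (SE 0.18, adjusted p = 1.60e-06), or 4.64-fold lower. Sema6d, a membrane-bound semaphorin, a class of guidance cue, was the most even of the large falls: 9.47, 9.48, 9.54 and 9.69 in WT against 7.95, 7.97, 7.97 and 7.76 in mutant (−1.63 log2, SE 0.10, adjusted p = 1.41e-07, 3.10-fold).

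Clusterin, Clu, a secreted chaperone that marks regenerating gut epithelium, read 10.73, 10.99, 10.19 and 9.81 log2 in WT. In the mutant it read 8.57, 8.96 and 9.80 in samples 2 to 4 and was lower still in sample 1. The highest mutant array nearly met the lowest WT array, so the groups were barely apart. It fell 3.03-fold (−1.60 log2, SE 0.30, adjusted p = 0.00519). Gml and its close copy Gml2, genes of membrane-anchored Ly6-type proteins, fell 3.14-fold (8.37 ± 0.36 to 6.72 ± 0.54) and 2.87-fold (6.61 ± 0.34 to 5.09 ± 0.51), the second into the dim range. In both genes mutant 1 was the lowest array. Just below the 15 largest falls, and named after their values were seen, stood Boc, a hedgehog co-receptor (8.53 ± 0.07 to 7.47 ± 0.20), Gna14, a G protein alpha subunit (8.70 ± 0.11 to 7.65 ± 0.05), and Ptprj, a receptor tyrosine phosphatase (9.90 ± 0.04 to 8.85 ± 0.24).

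The largest rise was in Krt36, a keratin otherwise known from hair and tongue. It read 6.83, 6.37, 6.29 and 6.61 log2 in WT and 8.39, 9.85, 8.12 and 8.81 in mutant. Mutant 2 was the highest and the groups were far apart, at 2.27 log2 (SE 0.28, adjusted p = 0.000106), or 4.82-fold from a dim WT level. Another hair-type keratin, Krt84, read 5.57, 4.96, 5.85 and 5.61 in WT and 6.97, 7.80, 6.92 and 6.50 in mutant. Mutant 2 was again the highest (1.55 log2, SE 0.21, adjusted p = 0.000349). Krt23, a keratin of simple epithelia, rose 1.48-fold from 7.53 ± 0.16 to 8.10 ± 0.15 (adjusted p = 0.0164, call lost without WT 1, WT 2 or mutant 2, up to 0.0673). Of 14 tested keratins these 3 rose (21.4%, against 1.00% of all tested genes) and 0 fell, with a median of 0.11 log2 beside −0.01 over all tested genes. Krt4 was uneven, at 7.05 ± 0.81 in WT and 8.13 ± 0.59 in mutant, and was not called (adjusted p = 0.150) except without WT 2 (0.0302). Krt8, Krt18 and Krt19, the keratins of the gut lining, differed by −0.01, 0.02 and 0.01 log2.

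S100g, the vitamin D-regulated calcium-binding protein calbindin, read 8.03, 7.70, 8.21 and 8.26 log2 in WT and 9.71, 10.15, 9.31 and 8.99 in mutant. Every mutant array was above every WT array (1.49 log2, SE 0.19, adjusted p = 0.000163, 2.81-fold). Clec2f, a C-type lectin-like membrane protein, rose 3.51-fold (6.79 ± 0.42 to 8.60 ± 0.17), and the phosphatase Ppef1 3.22-fold from a dim level (5.93 ± 0.31 to 7.62 ± 0.33). Further named rises from the dim range were those of the microtubule-binding gene Mtus2 (2.42-fold), the adenylyl cyclase Adcy8 (2.36-fold), the actin-binding profilin Pfn2 (2.34-fold) and the zinc-finger factor Ikzf2 (2.22-fold). R3hdml, which was not dim in either group, rose 2.19-fold (7.91 ± 0.20 to 9.05 ± 0.15). Of the 15 largest rises 9 had a dim group, as did 7 of the 15 largest falls.

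**Figure D1:**
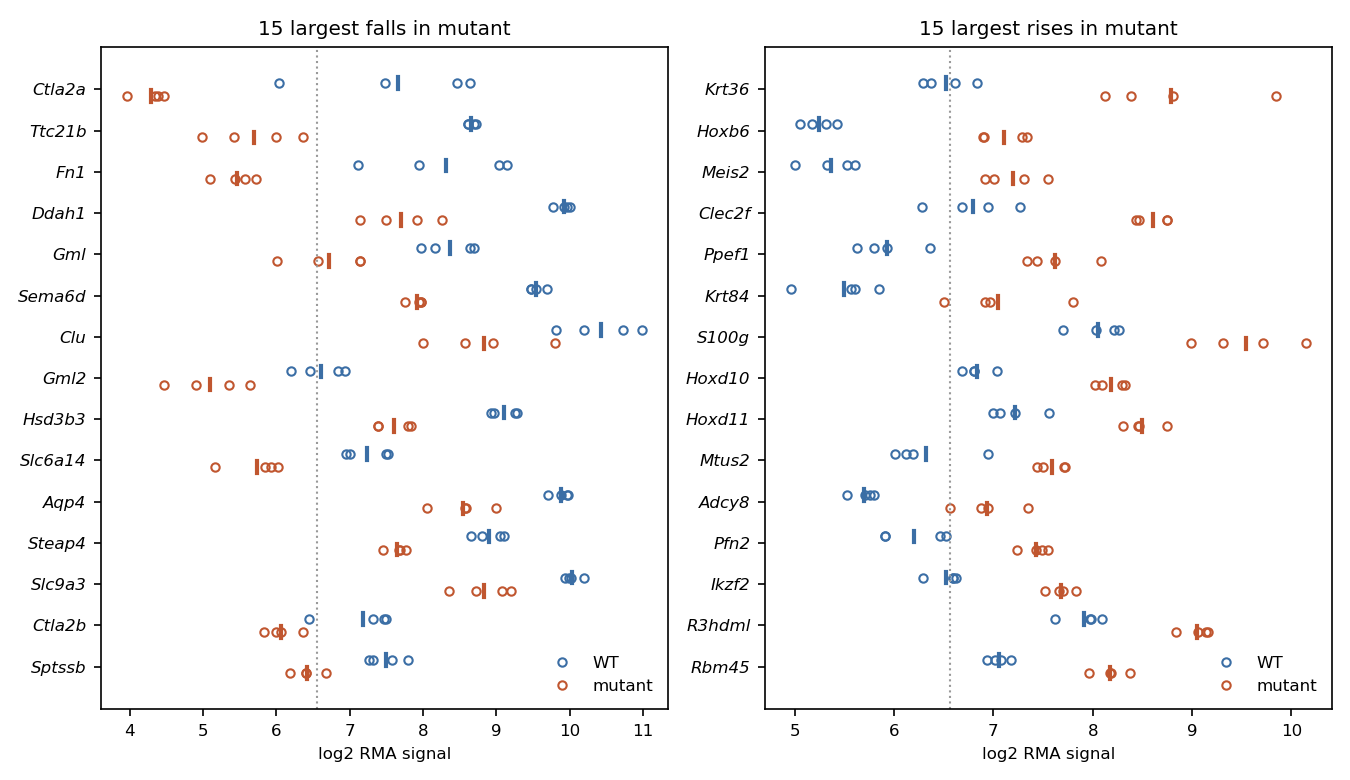
Log2 signal of the 15 genes with the largest falls (left) and the 15 with the largest rises (right) among called genes with no overlap between the groups. Each circle is 1 of the 4 WT (blue) or 4 mutant (orange) untreated arrays, the vertical bars are group means, and the dotted line at 6.56 marks the top of the dim range. WT values of Ctla2a and Fn1 are widely spread, and Clu nearly meets between the groups.

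Homeobox genes, which pattern the body axis and the gut, were among the largest rises. Hoxb6 read 5.31, 5.17, 5.05 and 5.43 log2 in WT and 7.29, 6.90, 7.34 and 6.91 in mutant, so it went from dim on all WT arrays to above the dim range on all mutant arrays (1.87 log2, SE 0.13, adjusted p = 4.90e-07, 3.66-fold). Meis2, a homeobox cofactor of Hox proteins, read 5.32, 5.53 and 5.61 in WT 1, 3 and 4, less in WT 2, and 6.92, 7.01, 7.55 and 7.31 in mutant (1.83 log2, SE 0.20, adjusted p = 4.41e-05). Both moved from a dim WT level, and their groups were far apart. Hoxd10 read 6.80, 7.04, 6.80 and 6.68 in WT and 8.09, 8.33, 8.29 and 8.02 in mutant (1.35 log2, SE 0.15, adjusted p = 5.13e-05). Hoxd11 read 7.22, 7.56, 7.00 and 7.07 in WT and 8.30, 8.46, 8.75 and 8.47 in mutant (1.28 log2, SE 0.12, adjusted p = 4.76e-06). Hoxd13, the most posterior of the cluster, rose 2.00-fold (7.84 ± 0.31 to 8.84 ± 0.13, adjusted p = 0.000151). Hoxd12 between them was higher in every mutant array but was not called (0.46 log2, adjusted p = 0.0804), except in 3 alternatives, namely a fit to the 8 untreated arrays alone (adjusted p = 0.0158) and the fits without WT + TNFa 2 or 4. Hoxd1, Hoxd8 and Hoxd9 were too dim to test.

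Within the gut patterning list, 5 of 21 tested genes were called (23.8%, against 2.48% of all tested genes). The 4 that rose were these Hox genes, and the 1 that fell was Cdx2, the homeobox gene that specifies intestinal identity. It read 9.05, 9.10, 8.81 and 8.99 log2 in WT and 8.27, 8.50, 8.45 and 8.63 in mutant (−0.52 log2, SE 0.11, adjusted p = 0.0158). The groups were apart, but the call ended without WT 1, WT 2 or mutant 1, up to an adjusted p of 0.0602. The list's median was 0.08 log2. Its relative Cdx1 differed by −0.03.

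The Hoxd cluster lies close to Atf2 on chromosome 2, so genes were also read in chromosome order, taking the 20 named genes on the array on each side. Of 27 tested neighbours of Atf2, 6 were called (22.2%, against 2.48% of all tested genes). Higher were 5 of them: Hoxd10, Hoxd11 and Hoxd13, the RNA-binding protein gene Rbm45 and the integrin gene Itga6. Rbm45 read 6.94, 7.02, 7.08 and 7.18 log2 in WT and 7.96, 8.18, 8.17 and 8.38 in mutant (1.12 log2, SE 0.14, adjusted p = 0.000178). Itga6, the laminin-binding integrin chain of the epithelial base, read 11.27, 11.17, 11.12 and 11.15 in WT and 11.51, 11.61, 11.70 and 11.62 in mutant (0.43 log2, SE 0.06, adjusted p = 0.000648). Groups did not overlap for either gene. The 1 lower neighbour was Pdk1, a kinase that restrains pyruvate dehydrogenase (−0.42 log2, SE 0.11, adjusted p = 0.0459), and its call ended without 12 of the 16 arrays in turn (up to 0.139). Other genes between them were not called: Evx2 (0.25 log2, adjusted p = 0.258, called without mutant 2 at 0.0466), Atp5g3 next to Atf2 (−0.06, adjusted p = 0.688) and Nfe2l2 (−0.01, adjusted p = 0.977).

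Just beyond the 20 genes, and named after their values were seen, Ccdc141 read 6.29, 6.40, 6.41 and 5.99 log2 in WT and 7.31, 7.38, 7.54 and 7.13 in mutant (1.07 log2, SE 0.12, adjusted p = 4.38e-05), and its neighbour Sestd1 was 0.49 log2 higher (adjusted p = 0.0324, call ended without any of 6 arrays, up to 0.110). Both genes were dim in WT. Around Atf7 on chromosome 15, 0 of 26 tested neighbours were called. Just beyond the 20 genes on that side, Krt4 was 1.07 log2 higher and was not called (adjusted p = 0.150). Chromosome 2 as a whole had 27 of 914 tested genes called (2.95%). On it 9 were called at 2-fold or more (0.985%), against 0.153% higher and 0.153% lower of all tested genes. Outside the 20-gene window, Ttc21b stood at −55 genes from Atf2. Next to it, at −56, was Galnt3, named after its values were seen (−0.42 log2, adjusted p = 0.00254). The retinol dehydrogenase gene Dhrs9 stood at −42 (−0.53 log2, adjusted p = 0.0242, up to 0.0854). Ptprj, Meis2, Sema6d and R3hdml were much farther, at 268 to 888 genes from Atf2. Chromosome 15 had 18 of 484 called (3.72%) and 4 called at 2-fold or more (0.826%). These were Krt84, Adcy8, Gml and Gml2, outside the 20-gene window around Atf7. How far outside it each of them lay was not counted. On chromosome X the share called at 2-fold or more was 1.00%. The share called ran from 0.767% on chromosome 14 to 3.99% on chromosome 6 among the numbered chromosomes. No label gives the mouse strain of either genotype or allele, and strain differences next to an altered gene cannot be told apart from effects of its loss.

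**Figure D2:**
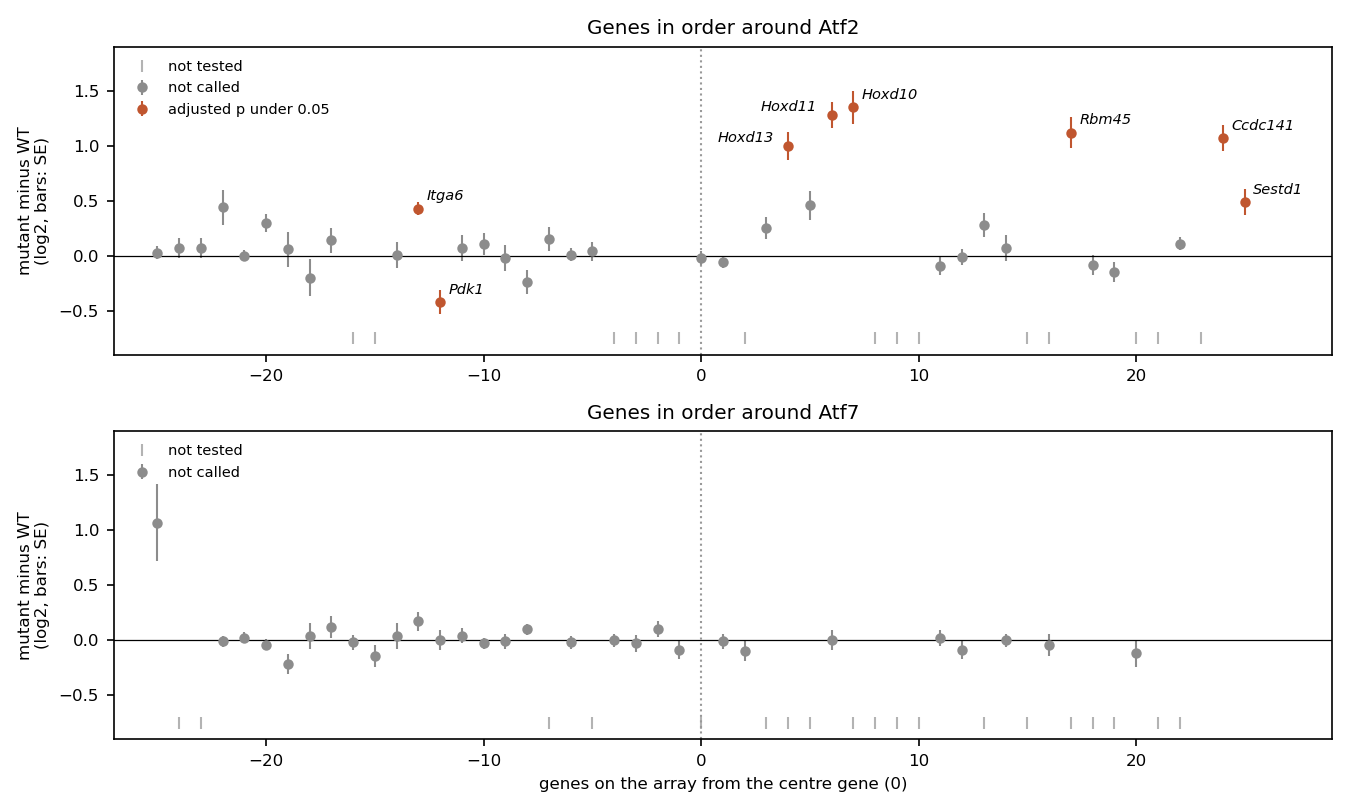
Mutant minus WT (log2, untreated, bars: SE) for named genes in chromosome order around Atf2 (top) and Atf7 (bottom), with the centre gene at 0. Orange points passed the adjusted threshold, grey points did not, and ticks at the bottom are genes too dim to test. Of the called rises only Itga6 lies on the side of Atf2 away from the Hoxd genes, and no point passed around Atf7.

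Several genes of ion, phosphate and water transport in mature colonocytes fell in the mutant. Slc9a3, the sodium/proton exchanger NHE3, read 10.02, 9.94, 10.19 and 9.99 log2 in WT and 9.08, 9.20, 8.72 and 8.35 in mutant. All mutant arrays were below all WT arrays (−1.20 log2, SE 0.15, adjusted p = 0.000106, 2.29-fold). The water channel gene Aqp4 read 9.88, 9.98, 9.71 and 9.97 in WT and 8.05, 8.58, 8.99 and 8.57 in mutant (−1.33 log2, SE 0.19, adjusted p = 0.000404). The phosphate transporter Slc20a1 read 8.35, 8.38, 8.21 and 8.36 in WT and 7.81, 7.99, 7.44 and 7.64 in mutant (−0.60 log2, SE 0.11, adjusted p = 0.00419). None of these groups overlapped. The membrane protein gene Emp1 fell 1.40-fold (11.02 ± 0.10 to 10.54 ± 0.13).

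In all, 6 of 30 tested absorptive colonocyte genes fell (20%, against 1.48% of all tested genes) and 0 rose, with a list median of −0.12 log2. The list was not uniform: 9 of the 30 had a positive difference, up to 0.74 log2. With TNFa 2 members were called higher and 5 lower. The remaining called members were the retinol dehydrogenase Dhrs9 (−0.53 log2, adjusted p = 0.0242, dim in mutant) and the adhesion molecule Ceacam20 (−0.42, adjusted p = 0.0443). Their calls ended without 6 and 10 of the arrays in turn (up to 0.0854 and 0.150). Other members of the list did not pass. The chloride/bicarbonate exchanger Slc26a3 was 0.22 log2 higher, with every mutant array above every WT array, and did not pass (adjusted p = 0.0665). It was called as higher in 4 of 27 alternatives, among them the stricter filter and the trend with robust fit (0.00557, the lowest). The carbonic anhydrase Car4 was uneven in the mutant, at 10.09, 10.31, 9.22 and 9.31 (−0.46 log2, adjusted p = 0.294).

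Outside the lists, Slc6a14, an importer of neutral and basic amino acids, was among the 15 largest falls, reading 7.52, 7.50, 6.95 and 7.00 log2 in WT and 5.16, 6.02, 5.93 and 5.84 in mutant (−1.51 log2, SE 0.18, adjusted p = 0.000106). The following genes were picked after their values were seen, so they give no count of a class. The sodium/proton exchanger Slc9a2 read 10.23, 10.39, 10.67 and 10.60 in WT and 9.92, 9.68, 9.87 and 9.59 in mutant (−0.71 log2, adjusted p = 0.00412). The dicarboxylate transporter Slc13a2 read 8.76, 8.86, 9.26 and 8.96 in WT and 8.18, 8.01, 8.11 and 7.98 in mutant (−0.89 log2, adjusted p = 4.09e-05). The groups were apart for all 3 transporters, and Slc6a14 was dim on every mutant array. Slc3a1, a subunit of the cystine transporter, fell 1.81-fold (9.62 ± 0.32 to 8.77 ± 0.11), the dipeptidase Dpep1 1.72-fold (9.99 ± 0.27 to 9.21 ± 0.10) and the peroxisomal oxidase Hao2 1.72-fold (10.25 ± 0.05 to 9.46 ± 0.22). Fxyd4, a small regulator of the sodium pump, rose 2.05-fold (8.71 ± 0.07 to 9.74 ± 0.10, adjusted p = 2.70e-05), and the ileal bile acid transporter Slc10a2 rose 1.40-fold (10.01 ± 0.16 to 10.49 ± 0.10, adjusted p = 0.0137, up to 0.0530 with 1 array left out).

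**Figure D3:**
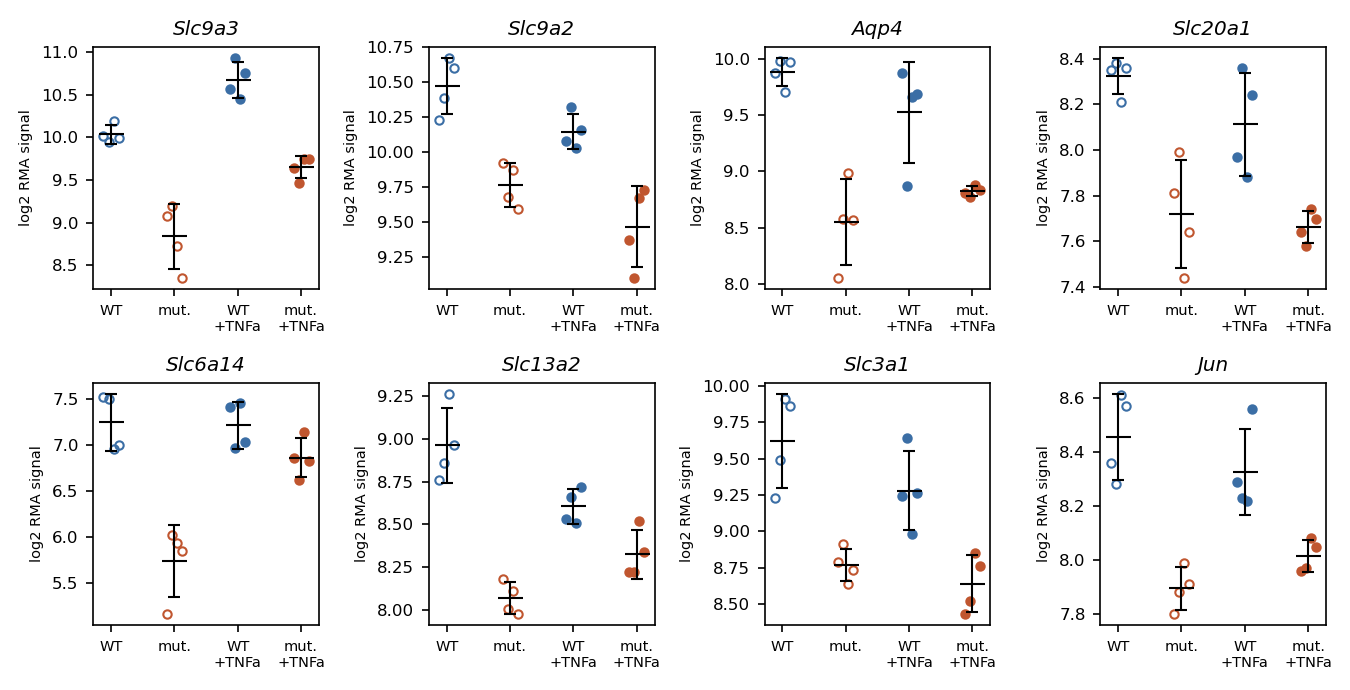
Log2 signal of 7 transporter genes and Jun in the 4 groups, WT and mutant (mut.) without TNFa (open circles) and with it (filled circles). Each circle is 1 array, the horizontal bar is the mean and the error bar the SD of 4 arrays; vertical axes differ and do not start at 0. In each panel the untreated mutant arrays all lie below the untreated WT arrays.

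In the lists of other epithelial cell types few genes were called, and the called ones went both ways. Among 25 tested goblet cell genes 2 rose and 1 fell (12.0% called, against 2.48% of all tested genes, median −0.03 log2). Reg4, a lectin secreted by goblet cells, read 11.10, 11.07, 10.86 and 10.88 log2 in WT and 11.53, 11.54, 11.68 and 11.48 in mutant (0.58 log2, SE 0.07, adjusted p = 0.000106). The thiol oxidase Qsox1 rose 1.20-fold and the mucin glycosylation gene Galnt7 fell 1.22-fold; their calls ended without 7 and 9 arrays in turn (up to 0.0882 and 0.129). Of 21 enteroendocrine genes 2 were called (9.52%). The tachykinin precursor Tac1 rose (0.51 log2, adjusted p = 0.0269, call ended without any of 6 arrays, up to 0.103). The prohormone-processing carboxypeptidase Cpe fell (−0.30 log2, adjusted p = 0.0110). None of 8 tested tuft cell genes was called. Of 19 crypt stem cell and Wnt target genes 0 were called, although 16 differences were positive (median 0.10 log2), with the stem cell receptor Lgr5 at 0.18 (adjusted p = 0.440). Of 32 DNA replication and mitosis genes 0 were called, although 25 differences were positive (median 0.06). Among 20 small intestine and Paneth cell genes 4 were called (20%, against 2.48% of all tested genes). Of these 2 rose, Slc10a2 and the lectin Itln1 (7.34 ± 0.40 to 8.13 ± 0.12, adjusted p = 0.00365). The other 2 fell, the lipoprotein gene Apob (8.26 ± 0.09 to 7.63 ± 0.23, adjusted p = 0.0225) and the antibacterial phospholipase Pla2g2a (7.52 ± 0.14 to 6.92 ± 0.30, adjusted p = 0.0203). The calls of Apob and Pla2g2a ended without 4 and 5 arrays in turn (up to 0.0854 and 0.0649).

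Jun was the only one of 11 tested AP-1 subunit and Maf genes to be called (9.09%, against 2.48% of all tested genes). It encodes a dimer partner of ATF2 and ATF7 and read 8.36, 8.28, 8.61 and 8.57 log2 in WT and 7.80, 7.88, 7.99 and 7.91 in mutant. Every mutant array was below every WT array (−0.56 log2, SE 0.08, adjusted p = 0.000857, 1.48-fold), and the call was kept in 27 alternatives, leaving out each array included, but the change does not reach the 2-fold minimum. Fos (−0.22, adjusted p = 0.350) and Jund (−0.13, adjusted p = 0.450) were also lower without passing. Upstream, 1 of 15 tested JNK and p38 pathway kinases was called (6.67%). Mapk11, which encodes p38 beta, read 8.58, 8.55, 8.66 and 8.58 in WT and 7.98, 8.32, 8.31 and 8.21 in mutant (−0.39 log2, adjusted p = 0.0238). Its call ended without any of 6 arrays (up to 0.0806). Of 25 MAPK feedback and early response genes, the ERK phosphatase Dusp5 rose 1.36-fold (9.06 ± 0.18 to 9.50 ± 0.07, adjusted p = 0.0190, up to 0.0642 with 1 array left out), and the early response gene Ier3 fell 1.37-fold (adjusted p = 0.0437, up to 0.142).

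The Jun promoter holds both of the sites known to bind Jun and ATF2 dimers, jun1 and jun2, which is why these windows are shown. They were read from RefSeq promoter sequences of GRCm38.p6, on the minus strand, 5′ to 3′, with the site in capitals. The jun1 site TGACATCA begins 45 bases and the jun2 site TTACCTCA 164 bases upstream of the annotated start. Both sites were added to the search after the value of Jun was seen, and on either strand TGACATCA occurs in 1.77% and TTACCTCA in 0.621% of the promoters of tested genes. The match is a description of sequence, not a measurement of binding.
Jun, jun1 window, chr4:95052230-95052297: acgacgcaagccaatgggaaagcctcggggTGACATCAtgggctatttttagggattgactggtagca
Jun, jun2 window, chr4:95052349-95052416: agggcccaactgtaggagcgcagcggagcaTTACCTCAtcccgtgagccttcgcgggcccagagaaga

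The full CRE, TGACGTCA, was searched on both strands from 250 bases before to 50 after each annotated start. It was found in 7 of 317 promoters of called genes (2.21%, exact 95% interval 0.892 to 4.50), against 2.96% of 12077 promoters of tested genes, so the share among called genes was the lower one. The shorter core TGACG, which every full CRE contains, was in 20.5% of the promoters of called genes against 29.5%, and the AP-1 site TGANTCA in 7.89% against 5.82%. Of 26 promoters found for 21 of the 30 genes with the largest changes, 0 held the CRE and 5 held the AP-1 site. Of the 7 called genes with a CRE, 4 are shown with the site in capitals, 2 lower and 2 higher in the mutant, since the same letters went with either direction. Sstr2, a somatostatin receptor, was 0.62 log2 lower (−0.62, adjusted p = 0.00324, dim in mutant), Abcg2, a drug efflux pump, lower (−0.42, adjusted p = 0.0462), Dnttip1, a histone deacetylase partner, 0.49 higher (adjusted p = 0.0103), and Fstl4, a follistatin-like gene, 0.37 higher (adjusted p = 0.0382, dim in WT). Abcg2 and Fstl4 lost their calls without 12 and 6 of the arrays in turn (up to 0.157 and 0.131). The windows are on the plus strand of GRCm38.p6, from RefSeq.
Sstr2, CRE 58 bases upstream, chr11:113619239-113619306: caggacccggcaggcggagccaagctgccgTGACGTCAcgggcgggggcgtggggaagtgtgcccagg
Abcg2, CRE 37 bases upstream, chr6:58640479-58640545: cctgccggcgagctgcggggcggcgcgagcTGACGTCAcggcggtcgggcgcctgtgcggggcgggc
Dnttip1, CRE 26 bases upstream, chr2:164745959-164746014: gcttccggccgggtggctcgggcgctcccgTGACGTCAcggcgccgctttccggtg
Fstl4, CRE 77 bases upstream, chr11:52764599-52764666: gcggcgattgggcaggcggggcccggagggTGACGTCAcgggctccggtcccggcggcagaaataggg

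The integrated stress response induces genes of amino acid metabolism through the related factor ATF4. Of its 36 tested genes 3 fell (8.33%, against 1.48% of all tested genes) and 0 rose. A negative difference was seen in 32 of the 36 (median −0.11 log2, beside −0.01 over all tested genes). Mthfd2, a mitochondrial folate enzyme, read 8.14, 8.12, 8.20 and 7.98 in WT and 7.47, 7.69, 7.67 and 7.64 in mutant (−0.50 log2, adjusted p = 0.0217). The alanine aminotransferase Gpt2 (−0.56, adjusted p = 0.0130, dim in mutant) and the glutathione-degrading Chac1 (−0.32, adjusted p = 0.0237) were the others, and their groups overlapped for Gpt2 only. The calls of Mthfd2, Chac1 and Gpt2 ended without 5, 4 and 2 arrays in turn (up to 0.0770, 0.0933 and 0.0581). Those of Chac1 and Gpt2 also ended in a fit to the untreated arrays alone, and that of Chac1 without the filter. Asns, asparagine synthetase, was lower on each mutant array than on any WT array but missed the threshold (−0.27 log2, adjusted p = 0.0529). It was called in 7 of 27 alternatives, among them the stricter filter and the trend with robust fit (0.0168, the lowest). Atf4 itself differed by −0.07 (adjusted p = 0.790). Of 25 tested genes of the unfolded protein response and chaperones 0 were called, and 22 had a negative difference (median −0.06). Negative differences also prevailed in lipid synthesis (21 of 24), respiratory chain subunits (32 of 39) and hypoxia and glycolysis (18 of 23). The tilt was therefore not particular to the ATF4 list.

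In iron and copper handling 4 of 20 tested genes fell (20%, against 1.48% of all tested genes) and 0 rose (median −0.09 log2). Steap4, a metalloreductase, read 8.65, 8.81, 9.11 and 9.05 in WT and 7.77, 7.45, 7.68 and 7.67 in mutant (−1.26 log2, SE 0.11, adjusted p = 4.76e-06). Ceruloplasmin, Cp, a copper-carrying ferroxidase, read 7.21, 7.90, 7.38 and 7.31 in WT and 6.67, 6.61, 6.67 and 6.52 in mutant (−0.83 log2, SE 0.17, adjusted p = 0.0116). The transferrin receptor Tfrc fell 1.40-fold from 8.49 ± 0.12 (−0.49 log2, adjusted p = 0.00703), and Steap3 also 1.40-fold (adjusted p = 0.0382, call ended without any of 9 arrays, up to 0.107). None of these 4 groups overlapped.

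Steroid and xenobiotic metabolism changed in both directions, with 2 of 42 tested genes higher and 4 lower (14.3% called, against 2.48% of all tested genes, median −0.04 log2). Hsd3b3, a steroid dehydrogenase, read 8.93, 8.97, 9.26 and 9.28 in WT and 7.80, 7.84, 7.38 and 7.39 in mutant (−1.51 log2, SE 0.13, adjusted p = 4.76e-06). Its relative Hsd3b2, whose probes may share signal with it, fell 1.71-fold (7.69 ± 0.15 to 6.91 ± 0.22), the carboxylesterase Ces2e fell 1.33-fold (adjusted p = 0.0271, up to 0.108), and the aldo-keto reductase Akr1c19 rose 1.34-fold (10.93 ± 0.08 to 11.36 ± 0.05). The remaining called members were Abcg2, given above, and the sterol hydroxylase Cyp27a1 (0.50 log2, adjusted p = 0.0444, call ended without any of 12 arrays, up to 0.135). Among 36 NRF2 target and glutathione genes 4 were called (11.1%, against 2.48% of all tested genes). Of these 3 fell, Mgst1 (−0.64 log2, adjusted p = 0.000106), Gstm2 (−0.31, up to 0.0635) and Gstm6 (−0.27, up to 0.100). The 1 that rose was Gstm5 (0.28). All 4 encode glutathione transferases. The Gstm genes are near copies of each other and can share probes. Sptssb, a small subunit of the enzyme that starts sphingolipid synthesis, fell 2.10-fold (7.49 ± 0.25 to 6.42 ± 0.20).

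Other metabolic lists held a single called member each, or 2.56% to 5.88% of those tested, against 2.48% of all tested genes. In fat metabolism the elongase Elovl6 (−0.35 log2, adjusted p = 0.00398, 1 of 24 lipid synthesis genes) and the lipid droplet coat Plin2 (−0.31, adjusted p = 0.0242, up to 0.0736, 1 of 17 fat oxidation genes) fell. Of 39 respiratory chain subunits only Sdha fell (−0.30, adjusted p = 0.0137, call lost without WT 1 or WT 2, up to 0.0592), and of 23 hypoxia and glycolysis genes only Pdk1. Of 20 zinc transporters and metallothioneins Slc39a6 rose (0.27, adjusted p = 0.0130, call lost without WT 2 at 0.0574).

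Matrix and adhesion genes had 3 called members of 19 tested (15.8%) and wound genes 2 of 21 (9.52%), against 2.48% of all tested genes. Besides Fn1 and Itga6, the collagen-binding integrin Itga2 fell (10.09 ± 0.03 to 9.75 ± 0.07, adjusted p = 0.0198, call lost without WT 2, WT 4, mutant 1 or mutant 4, up to 0.0712), among 19 tested genes of matrix, laminins and integrins. In the wound-associated and fetal-like list of 21 tested genes Clu fell and Ccn2, a matricellular growth factor modulator, rose (0.28 log2, adjusted p = 0.0411, call ended without any of 8 arrays, up to 0.144). Of 24 junction and barrier genes 1 fell (4.17% called), the pore-forming claudin Cldn15. Its arrays read 9.66, 9.65, 9.57 and 9.62 in WT and 9.33, 9.24, 9.28 and 9.23 in mutant (−0.35 log2, SE 0.05, adjusted p = 0.000968). Muc1, a transmembrane mucin named after its values were seen, fell 1.61-fold (11.20 ± 0.18 to 10.52 ± 0.23, adjusted p = 0.0365, up to 0.121).

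Inflammatory genes were little changed without TNFa. Of 24 NF-kB pathway genes 1 was called (4.17%) and of 14 chemokines 1 (7.14%), against 2.48% of all tested genes. The atypical IkB gene Nfkbiz rose (0.28 log2, adjusted p = 0.0231, up to 0.0879). Cxcl11, a ligand of CXCR3, fell (6.52 ± 0.19 to 5.78 ± 0.42, dim in both groups, adjusted p = 0.0177, up to 0.0691). No gene was called among 21 tested genes of TNF receptors and proximal signalling, 22 of the interferon response, 21 of antigen presentation, 19 of antimicrobial defence, 26 of cell death and 20 p53 targets. In these 6 lists the medians lay between −0.04 and 0.06 log2. Over all 40 lists, 57 of 793 distinct tested genes were called. The lists were chosen with earlier results known, so this share is not set against that of all genes. For the same reason the shares of single lists given above are descriptions only.

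**Figure D4:**
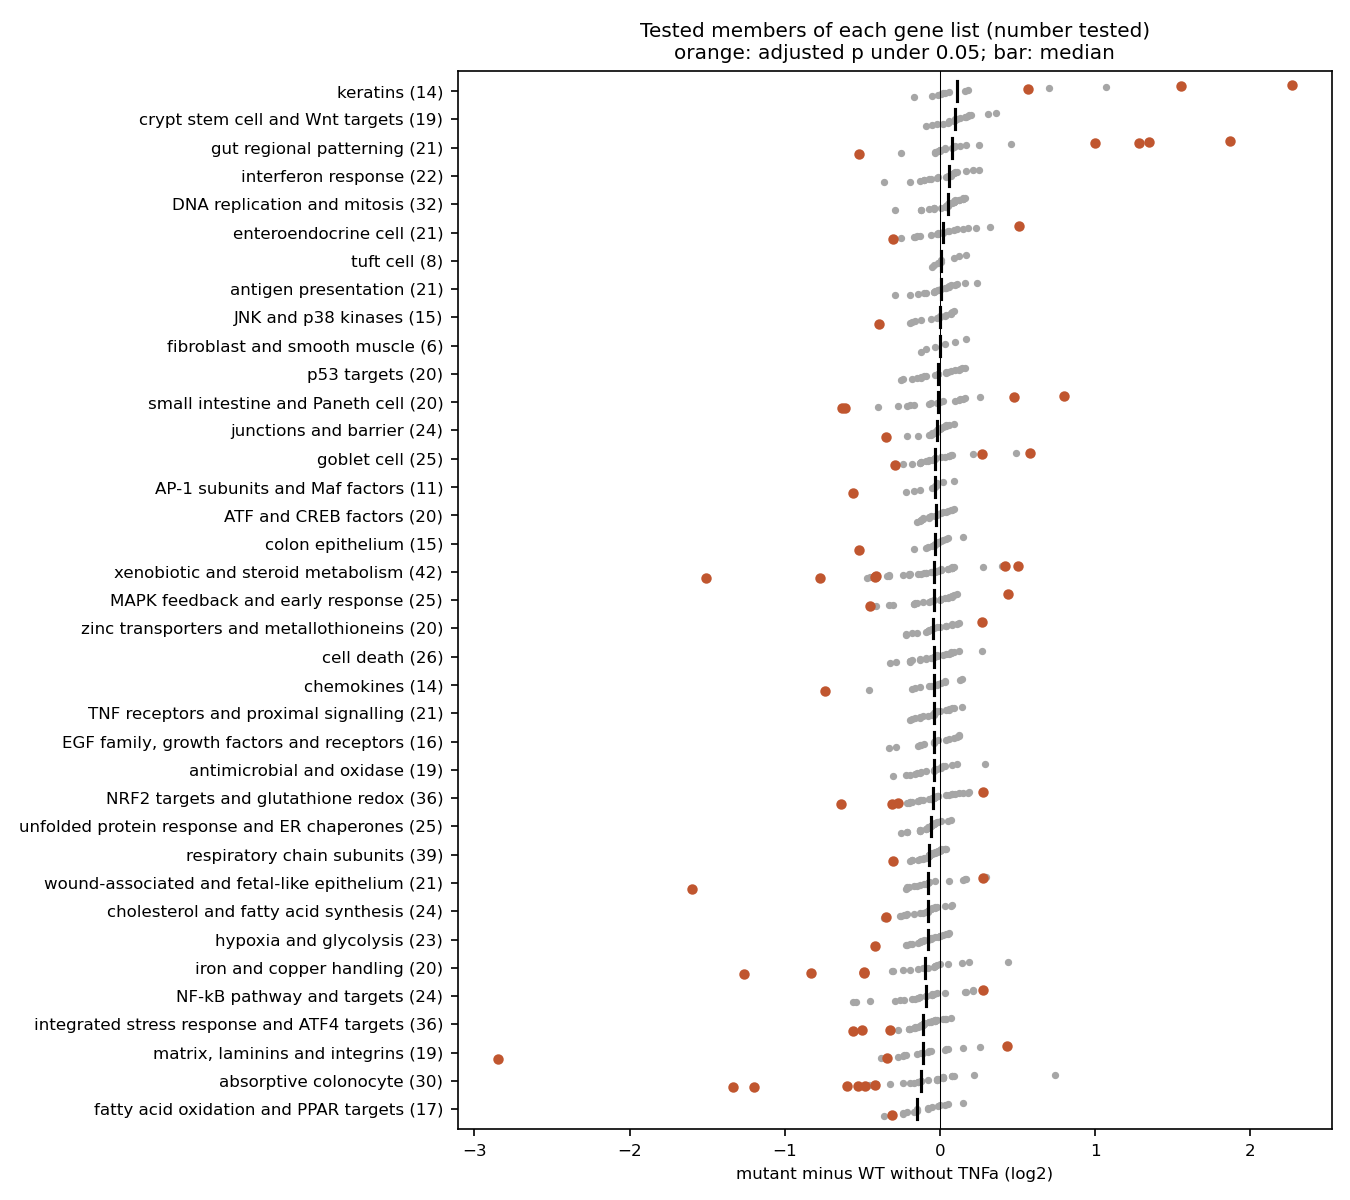
Mutant minus WT (log2, untreated) for the tested members of each gene list with at least 5 tested members, ordered by list median. Each point is a gene, orange where its adjusted p was under 0.05, the black bar is the median, and the number tested is in brackets. The medians lie between −0.15 (fatty acid oxidation) and 0.11 (keratins), while single members such as Fn1, Clu, Krt36 and Hoxb6 lie far from them.

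Other genes with large, even changes, named after their values were seen, belonged to none of these lists. Mid1, a microtubule-associated ubiquitin ligase, fell 1.80-fold (10.59 ± 0.06 to 9.74 ± 0.11, adjusted p = 3.52e-06). The insulin-degrading protease Ide fell 1.77-fold (10.33 ± 0.10 to 9.51 ± 0.11), and the Wnt receptor Fzd1 1.56-fold (8.07 ± 0.14 to 7.43 ± 0.03). Among the rises were the fucosyltransferase Fut9 (9.11 ± 0.21 to 9.93 ± 0.04, 1.77-fold), the epithelial transcription factor Grhl3 (8.90 ± 0.23 to 9.62 ± 0.09, 1.65-fold), the immune checkpoint ligand Vtcn1 (7.44 ± 0.19 to 8.18 ± 0.03, 1.67-fold) and the orphan nuclear receptor Nr2f6 (1.85-fold, from 9.11 ± 0.16).

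The same genotypes were also measured with TNFa, on 8 arrays whose values do not enter the untreated group means. The estimate of the spread, the brightness filter and the choice of probe sets are shared. With TNFa 317 genes were called (2.69%), 184 of them higher (1.56%) and 133 lower (1.13%). Of the 292 genes called without TNFa 123 were called with it, 63 higher and 60 lower, 0 of them in the opposite direction; this was 42.1% of the first list and 38.8% of the second. The sign was the same for 268 of the 292 (91.8%), against 58.4% of all tested genes. The changes were smaller with TNFa for 245 genes, which had been chosen by their untreated values. The median of the genes called higher was 0.49 log2 without and 0.40 with TNFa, and that of the genes called lower −0.45 and −0.24. Of the 36 genes called at 2-fold or more, 33 were called with TNFa. Without 1 of the mutant + TNFa arrays 1, 2 or 4 the count with TNFa was 192, 216 or 198, and that of lower genes was 70, 83 or 81.

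Of the 30 genes with the largest changes, 22 had log2 differences within 1.5 times of each other in the 2 conditions, 8 were smaller with TNFa by more than that and 0 were larger. Among the 22, Ctla2a was at −3.02 log2 with it (adjusted p = 0.000314), Fn1 at −2.74 (0.000169), Ttc21b at −2.39 (6.42e-06), Ddah1 at −2.13 (3.85e-06) and Clu at −1.87 (0.00170). Meis2 was at 1.89 (3.95e-05), Hoxb6 at 1.40 (1.04e-05), Hoxd10 at 1.38 (5.16e-05) and Hoxd11 at 0.97 (0.000112). The 8 smaller ones included Krt36, the largest rise without TNFa, at 1.25 with it (adjusted p = 0.0191), Clec2f at 0.92 (0.0437), S100g at 0.88 (0.0156), Steap4 at −0.49 (0.0279) and Sptssb at −0.57 (0.0321). Of the 30 genes 27 were called in the same direction. The exceptions were Slc6a14 (−0.35, adjusted p = 0.418), Aqp4 (−0.70, adjusted p = 0.0559) and Krt84 (0.62, adjusted p = 0.170). For none of the 8 was the difference between the conditions called (adjusted p from 0.275 to 0.660). Slc6a14 was at 7.24 ± 0.31 in untreated WT and 5.74 ± 0.39 in untreated mutant, against means of 7.21 and 6.86 with TNFa. Jun was again lower on every mutant array (−0.31 log2) without passing (adjusted p = 0.0670), and Slc13a2 (−0.28, adjusted p = 0.171), the palmitoyltransferase Zdhhc15 (−0.09, adjusted p = 0.732; −0.82 without TNFa, named after its values were seen) and Pla2g2a (0.39, adjusted p = 0.170) were not called.

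Reg4 was the 1 gene (0.00850% of those tested) for which the genotype effects themselves differed. The mutant was 0.58 log2 above WT without TNFa and 1.26 above it with TNFa, a difference of 0.69 (adjusted p = 0.0344). WT fell from 10.98 to 10.23 with TNFa while mutant was at 11.56 and 11.49. No gene was called for this difference without any 1 of 11 of the 16 arrays. An unadjusted p under 0.05 for this difference was found for 855 genes (7.27%). Chance alone gives about 1 in 20, so these are not counted as differing.

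**Figure D5:**
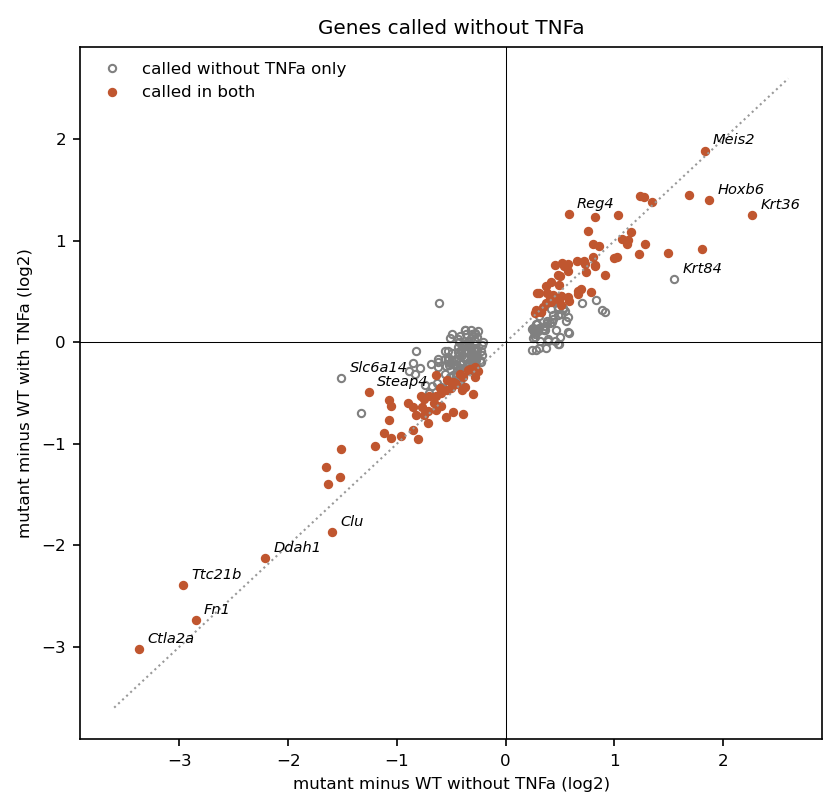
Mutant minus WT (log2) without TNFa (horizontal axis) and with TNFa (vertical axis) for the 292 genes called without TNFa. Filled points were called in both conditions, open points only without TNFa, and the dotted line marks equal differences. Ctla2a, Fn1 and Ddah1 lie at the lower left near the line, while Krt36, Krt84 and Slc6a14 lie well nearer to 0 on the vertical axis than on the horizontal one.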

How the data were processed

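RNA of 16 colon organoid samples was measured on 1-colour Affymetrix arrays, 1 array per sample, 4 samples in each of 4 groups taken from the titles. Per the labels' protocols, 400 ng of total RNA was amplified and labelled with biotin. Per the submitters' processing notes, the authors made the deposited log2 values with RMA in Affymetrix Expression Console. For tool versions and genome build, none is given in the sources used here. The number of arrays limits the precision.

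Of 19825 probe sets 18851 had 1 gene symbol, 974 none and 0 several, by the platform annotation. Each gene took its probe set of highest mean. Genes above their array's 40th percentile on at least 4 of 16 arrays were tested, which left out 7084 dim genes. No further normalization was applied. One limma 3.58.1 fit (R 4.3.3) to all 16 arrays gave the group means, with Benjamini-Hochberg adjustment over 11766 genes and a threshold of 0.05. Each SE comes from the fit, each SD from the 4 arrays of 1 group, and intervals are 95% ones.

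The fit was tested on simulated data with independent normal noise, 200 genes of 11766 being changed. For the untreated comparison it recovered 86.5% of changes of 0.5 log2 (11 false calls) and 100% of changes of 1 log2 (8 false calls). The simulation held no outlying array, so recovery in these arrays may differ. Sample numbers did not pair WT with mutant (correlations of their deviations −0.12, −0.04, −0.31 and −0.16), so no block was used.

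Members, filter, thresholds and the 40 gene lists were chosen with earlier results of these data known. The genes named are Atf2, the 15 largest rises and 15 largest falls without overlap of groups, per list the called genes of smallest p, at most 4, called neighbours of Atf2 and genes called in the difference of genotype effects. Others are said to be named after their values were seen, or are uncalled or further called members of a list or neighbours. Gene order and promoters came from RefSeq GRCm38.p6. Alternatives were 2 other filters, 2 treatments of probe sets, a variance trend with robust fit, array weights, median centring, quantile normalization again, untreated arrays alone, 2 replicate blocks, a 2-fold minimum and leaving out each array.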

Additional observations from a re-analysis of the deposited data

Results flagged for a closer look

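In 7 of 146 groups of 4 arrays of the genes named by rule, 1 array lay far from the other 3; chance gives about 1 in 20. Ikzf2 was at 6.29 log2 in WT 1 and at 6.59 to 6.62 in the other WT arrays. Ctla2b was at 6.44 in WT 4 against 7.32 to 7.50, and Gpt2 at 6.75 in WT 4 against 7.18 to 7.23. Sema6d was at 7.76 in mutant 4 against 7.95 to 7.97. Qsox1 was at 9.86 in mutant 2 against 9.94 to 9.96, and Gstm6 at 8.04 in mutant 2 against 7.89 to 7.90. Akr1c19 was at 11.28 in mutant 1 against 11.38 to 11.39.

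The genotype effect on Reg4 differed between conditions, being 0.69 log2 larger with TNFa (1.26) than without (0.58) in the test of the difference (adjusted p = 0.0344).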

How the results depend on the processing

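Of the 72 called genes named by rule, all 72 kept their sign in the alternatives that gave a value, 27 beside the 2-fold minimum, and 46 kept their call in those; the other 26 lost it without at least 1 array, 16 of them under another alternative as well. Without 1 array the untreated count ranged from 198 to 435 (higher 84 to 162, lower 109 to 273), that with TNFa from 192 to 340 (higher 117 to 202, lower 70 to 151), the difference of effects from 0 to 4, the number of lists with a called member from 17 to 25, Atf2 neighbours from 5 to 8, the CRE share of promoters from 0.962% to 2.53% and the Atf2 difference from −0.06 to 0.04. Array weights gave 443 untreated calls (272 lower) and 617 with TNFa (363 higher, 254 lower). A 2-fold minimum, which 30 of the 72 reach, left 36 untreated calls (18 higher, 18 lower), 37 with TNFa (23 and 14), 7 lists with a called member, 3 neighbours, 0 for the difference and a CRE share of 0.00%. That share was 0.784% without the filter and 0.690% with untreated arrays alone, which called 277 genes. The fit to untreated arrays alone ended the calls of Chac1, Gpt2, Ier3, Ccn2, Nfkbiz, Cxcl11 and Ces2e. It also ended those of Sestd1, Ceacam20, Abcg2 and Fstl4, and called Hoxd12. The difference of effects called 3 genes with the stricter filter, 5 with trend and robust fit and 3 with array weights. With the number as a replicate block 246 genes were called untreated (99 higher, 147 lower) and 0 for the difference; with genotype and number as a random block (correlation −0.08) 299 and 0. The sign of the Atf2 difference turned with quantile normalization again (0.01), without WT 1 (0.00) and without WT 2 (0.04). The cause of these changes was not tested beyond the construction of each alternative. Dim signals limit what the arrays show: 48 of the 292 called genes had a dim group.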
